A study of Mus musculus with 21 samples.

Results

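Fos, Jun, Egr1, Atf3 and Myc are immediate early genes, whose transcription starts within minutes of a stimulus without new protein being made. Each 3′ UTR interval of the deposited table that lies inside a window around a gene, on its strand, was taken as belonging to it, and of overlapping intervals the one with the most reads was kept. The windows held 21 intervals, and 8 were kept of 64988 kept in the whole table, 4 at Fos and 1 at each other gene. The choice of intervals used position and summed reads and no difference between groups. The genes and their windows were chosen with earlier results of these data known.

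The products of these genes are transcription factors. Fos and Jun proteins pair to form AP-1, Egr1 is a zinc finger factor, Atf3 is a stress-induced member of the ATF/CREB family that pairs with Jun among others, and Myc pairs with Max to drive genes of growth. Their mRNAs carry signals for fast decay, so their level follows transcription closely, and in heart they are known for quick induction by stretch, adrenergic stimulation, ischaemia and handling of the tissue.

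The data come from SLAM-IT-seq of the left ventricular free wall of 21 adult mice, 1 library per mouse. In this assay 4-thiouracil is built into new RNA mainly in cells with the enzyme uracil phosphoribosyltransferase (Uprt), and after iodoacetamide treatment it is read as a T>C conversion. All mice carried Myh6MCM, a tamoxifen-activated Cre recombinase under the cardiomyocyte promoter of Myh6. All received tamoxifen at 6 to 8 weeks of age, on 4 days, and 4-thiouracil 2 weeks after it, and hearts were taken 6 hours after 4-thiouracil. The groups were Lmna F/F with Uprt Tg/0 (6 mice, 4 of them female), Lmna +/+ with Uprt Tg/0 (8 mice, 4 female), Lmna F/F without Uprt (4 mice, 2 female) and Lmna +/+ without Uprt (3 mice, all male). Lmna is the gene of the nuclear lamins A and C, F is a floxed allele, and the cells that Cre does not reach keep it. The labels used here do not name the promoter of the Uprt transgene. Because Lmna +/+ without Uprt holds no female, the sex term of each fit is estimated from the other groups.

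The libraries held 25975905 to 51007407 reads on kept intervals, of which 1125790 to 2421214 carried a T>C conversion. The files pair no transcript ID with a gene name, so the level of Lmna, the markers of cell types in the tissue and further early-response genes were not analysed here. The names of the 5 genes follow from the position of their windows. All positions of intervals are on mm39.

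The promoters of 3 of the 5 genes are shown from RefSeq (build GRCm38.p6), each as 300 bases that span the gene start. Those of Egr1 and Myc are not shown. Capitals mark TGACGT, the half-site of the cAMP response element, or its reverse complement ACGTCA, the TATA box TATAAA and the AP-1-like site TGACATCA.
Fos, chr12:85473640-85473939, plus strand: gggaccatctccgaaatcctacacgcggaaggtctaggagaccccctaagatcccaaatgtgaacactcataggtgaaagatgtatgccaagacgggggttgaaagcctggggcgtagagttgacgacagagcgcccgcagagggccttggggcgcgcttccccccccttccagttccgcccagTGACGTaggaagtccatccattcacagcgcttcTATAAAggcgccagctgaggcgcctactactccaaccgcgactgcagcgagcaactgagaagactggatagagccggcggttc
Atf3, chr1:191183284-191183583, minus strand: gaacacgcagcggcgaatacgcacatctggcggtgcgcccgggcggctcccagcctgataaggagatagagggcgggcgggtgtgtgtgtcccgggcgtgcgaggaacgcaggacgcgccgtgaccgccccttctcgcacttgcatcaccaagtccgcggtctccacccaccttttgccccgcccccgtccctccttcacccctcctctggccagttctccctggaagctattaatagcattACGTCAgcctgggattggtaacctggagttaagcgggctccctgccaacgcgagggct
Jun, chr4:95052173-95052472, minus strand: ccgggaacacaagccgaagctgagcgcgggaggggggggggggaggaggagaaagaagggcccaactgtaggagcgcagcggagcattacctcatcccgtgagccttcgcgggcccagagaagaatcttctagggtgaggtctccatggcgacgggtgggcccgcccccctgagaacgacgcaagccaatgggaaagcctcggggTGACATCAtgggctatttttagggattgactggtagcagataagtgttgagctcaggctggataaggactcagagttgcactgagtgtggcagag

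The cAMP response element half-site starts at position -66 relative to the gene start in Fos and, in reverse orientation, at -8 in Atf3. Counting both strands, 7.51% of 32851 promoters of this length hold it. The Jun window holds TGACATCA at -45 (3.62% of promoters), and the Fos window holds TATAAA at -33 (13.6% of promoters). These are letter matches, which by themselves describe no bound factor. Whether they bear on the levels of these genes was not tested.

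Fos was read mainly on a terminal interval of 815 bases on chromosome 12, from 85523233 to 85524047 on the plus strand, with 2570 reads over the 21 libraries and 121 with a T>C conversion. Its other kept intervals lie upstream of it, at 85521709 to 85521960 with 23 reads, at 85522366 to 85522473 with 131 reads and at 85522591 to 85522959 with 344 reads. Jun was read on 1233 bases of chromosome 4, from 94937271 to 94938503 on the minus strand, with 22194 reads and 2314 T>C reads. Egr1 was read on 1216 bases of chromosome 18, from 34996822 to 34998037 on the plus strand, with 9807 reads and 1488 T>C reads. Atf3 was read on 1186 bases of chromosome 1, from 190902493 to 190903678 on the minus strand, with 2352 reads and 244 T>C reads. Myc was read on 442 bases of chromosome 15, from 61861758 to 61862199 on the plus strand, with 72 reads and 5 T>C reads. Multimapped reads made up 0.203% of the reads of Jun, 0.357% of those of Egr1 and none of those of Fos, Atf3 and Myc.

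The first comparison asked how the level of each RNA differed between Lmna F/F and Lmna +/+ hearts that carried Uprt. Atf3 was higher in Lmna F/F hearts, by 3.09-fold in edgeR, and it was the only one of the 4 genes with a tested main interval to pass the threshold in this comparison. Fos and Egr1 had higher means in Lmna F/F hearts but did not pass, nor did Jun, with a smaller fitted change. Levels are given in CPM, read counts scaled by library size and TMM, and a change as a log2 fold change with its standard error (SE). Of the 8 kept intervals 6 had enough reads for this fit: those of Atf3, Jun and Egr1 and 3 of the 4 at Fos.

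Atf3 ranged from 2.61 to 5.17 CPM in the 6 Lmna F/F mice with Uprt (median 3.56) and from 0.593 to 4.56 CPM in the 8 Lmna +/+ mice with Uprt (median 1.13). A single Lmna +/+ mouse, replicate 6 with 4.56 CPM, lay inside the Lmna F/F range, and the other 7 reached at most 1.24 CPM. The means were 3.80 ± 1.04 CPM in Lmna F/F (SD, n = 6) and 1.41 ± 1.30 CPM in Lmna +/+ (SD, n = 8). The fitted log2 change was 1.63 ± 0.35 (SE, edgeR adjusted p = 0.00803), where 2.45% of the 31366 intervals tested were called and 2.18% were called higher. Without any single library it stayed called, at 1.50 to 2.01. In males alone it was 1.11 ± 0.53 (edgeR adjusted p = 0.546), with 2 Lmna F/F males against 4 Lmna +/+ males, of which the Lmna +/+ mouse at 4.56 CPM was one. In whole tissue, a change in the number of cells that make an RNA and a change in RNA per cell cannot be told apart. This holds for every level given here.

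Fos ranged from 1.59 to 6.55 CPM in Lmna F/F hearts with Uprt (median 4.77) and from 0.414 to 3.01 CPM in Lmna +/+ hearts with Uprt (median 1.87). The ranges overlapped, and 4 of the 6 Lmna F/F mice lay above every Lmna +/+ mouse. Ranges that did not overlap were seen at 1.8% of the tested intervals in this comparison and at none of these genes. The log2 fold change of 1.31 ± 0.47 was not called (SE, edgeR adjusted p = 0.155), with a 95% interval of 0.39 to 2.23. The smaller Fos intervals had changes of 1.69 ± 0.73 for that from 85522591 (edgeR adjusted p = 0.270) and 1.30 ± 0.92 for that from 85522366 (edgeR adjusted p = 0.589).

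Egr1 ranged from 7.72 to 18.6 CPM in Lmna F/F hearts with Uprt (median 14.3) and from 3.06 to 14.9 CPM in Lmna +/+ hearts with Uprt (median 7.49). The ranges overlapped, and 3 of the 6 Lmna F/F mice lay above every Lmna +/+ mouse. Its fitted change, 0.85 ± 0.32 on the log2 scale, was not called (SE, edgeR adjusted p = 0.177).

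Jun had the most reads of the 5, with 25.8 to 35.9 CPM in Lmna F/F hearts with Uprt (median 29.2) and 16.0 to 33.6 CPM in Lmna +/+ hearts with Uprt (median 22.7). The ranges overlapped, and 5 of the 8 Lmna +/+ mice lay below every Lmna F/F mouse. The change of 0.30 ± 0.14 was not called (SE, edgeR adjusted p = 0.323), with a 95% interval of 0.025 to 0.58.

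Myc was close to the limit of detection. It had 14 reads over the 6 Lmna F/F libraries with Uprt, of which 2 held none, and 10 reads over the 8 Lmna +/+ libraries with Uprt, of which 4 held none. It did not pass the filter on low counts.

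**Figure D1:**
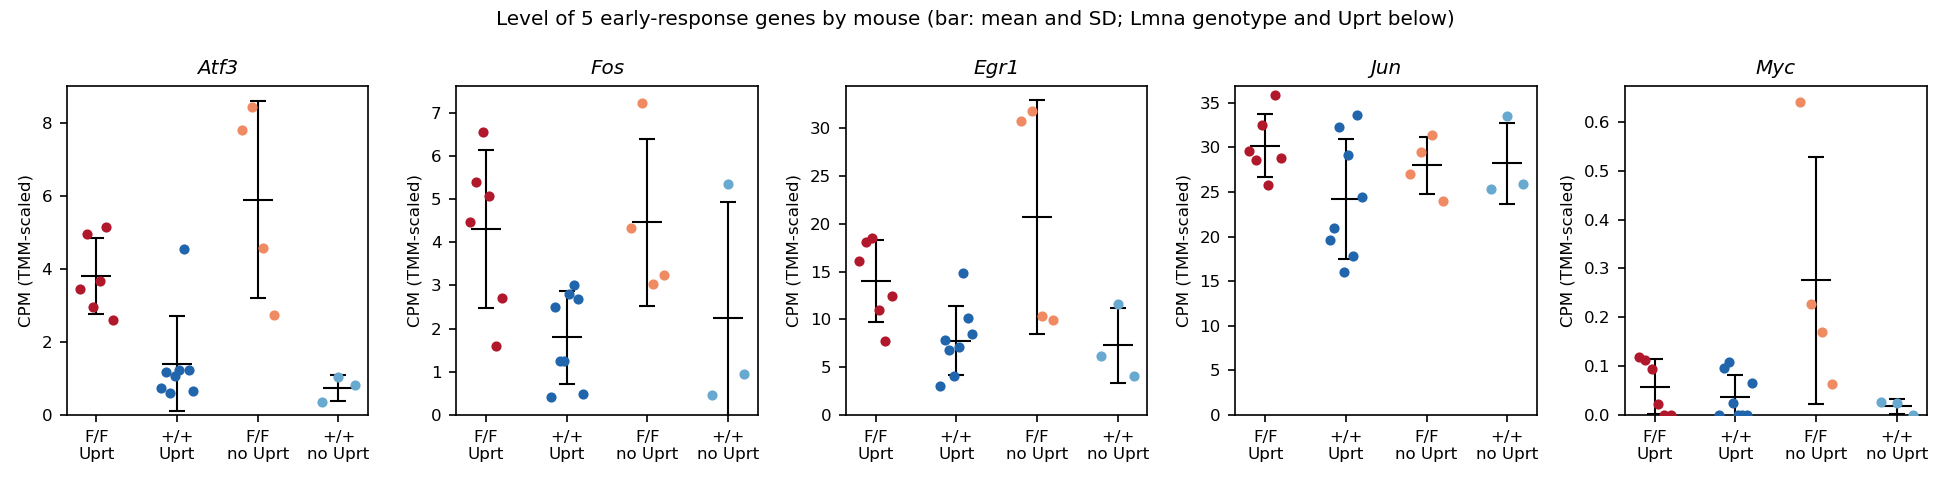
Level of each gene in CPM (linear axis from 0, a scale of its own per gene) in each mouse, with the mean and SD of each group. Atf3 lies at 2.61 to 8.45 CPM in the 10 Lmna F/F mice and, apart from 1 mouse at 4.56 CPM, at 1.24 CPM or less in the Lmna +/+ mice, while the groups of Jun overlap.

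The same comparison in the mice without Uprt, which are other animals, gave a higher Atf3 level in Lmna F/F hearts again. Atf3 had 7.81, 8.45, 4.57 and 2.75 CPM in the 4 Lmna F/F mice, against 0.354, 1.03 and 0.835 CPM in the 3 Lmna +/+ mice. The groups did not overlap, as for 14.9% of the tested intervals, 8.06% with Lmna F/F higher. The means were 5.89 ± 2.70 CPM (SD, n = 4) in Lmna F/F and 0.741 ± 0.349 CPM (SD, n = 3) in Lmna +/+. The fitted log2 change was 3.30 ± 0.56 (edgeR adjusted p = 0.000832), a 9.88-fold difference, where 5.17% of intervals were called. It stayed called without any single library, at 2.98 to 3.72. It was 2.71 without Lmna F/F replicates 1 and 2 together (edgeR adjusted p = 0.0356), and with only these 7 libraries in the fit it was 2.81 ± 0.52 and not called (edgeR adjusted p = 0.0780).

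Egr1 had 30.7, 31.9, 10.4 and 9.99 CPM in the Lmna F/F mice without Uprt, against 6.19, 11.6 and 4.07 CPM in the Lmna +/+ mice without Uprt. Lmna F/F replicates 1 and 2 were far above replicates 3 and 4, which lay below the highest Lmna +/+ mouse. The log2 fold change of 1.51 ± 0.47 was not called (SE, edgeR adjusted p = 0.0605). It was 0.49 without Lmna F/F replicates 1 and 2 together (edgeR adjusted p = 0.898), and it passed without Lmna +/+ replicate 2 (2.01, edgeR adjusted p = 0.0406) and in other settings given at the end.

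Fos had 4.32, 7.23, 3.04 and 3.25 CPM in the Lmna F/F mice without Uprt, against 0.463, 5.34 and 0.941 CPM in the Lmna +/+ mice without Uprt. Lmna +/+ replicate 2, at 5.34 CPM, lay above 3 of the 4 Lmna F/F mice. The change of 1.05 ± 0.67 on the log2 scale was not called (SE, edgeR adjusted p = 0.465), and without that mouse it was 2.70 (edgeR adjusted p = 0.0389). Without Lmna F/F replicates 1 and 2 together it was 0.63 (edgeR adjusted p = 0.935).

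Jun did not differ beyond the spread between mice, with 27.0, 29.5, 31.4 and 24.0 CPM in Lmna F/F without Uprt, against 25.3, 33.5 and 25.9 CPM in Lmna +/+ without Uprt. The fitted log2 change was -0.11 ± 0.21 (edgeR adjusted p = 0.871), with a 95% interval of -0.52 to 0.30. Scaled by library size alone it was 0.040.

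Myc had 27, 9, 7 and 3 reads in the Lmna F/F mice without Uprt, against 1, 1 and 0 reads in the Lmna +/+ mice without Uprt. The groups did not overlap, but replicate 1 of Lmna F/F held 27 of the 46 reads, and no test was made.

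**Figure D2:**
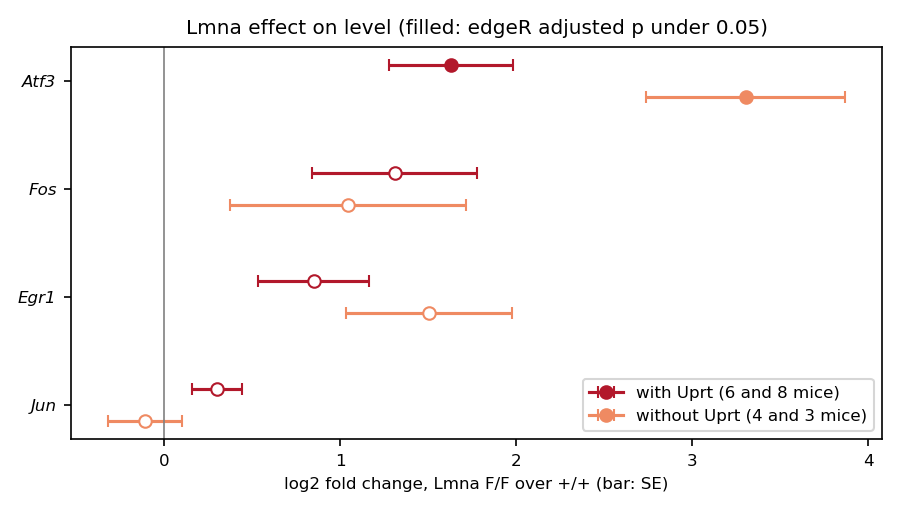
Log2 fold change of the level, Lmna F/F over +/+ (points, with SE as bars), in mice with Uprt and in mice without, for the 4 genes whose main interval was tested; filled points passed the threshold. Atf3 lies at 1.63 and 3.30, filled in both, and Jun at 0.30 and -0.11.

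The Lmna effect was then set against itself between mice with and without Uprt. The difference for Atf3, with Uprt minus without, was -1.68 ± 0.62 in log2 units (SE, unadjusted p = 0.0117, edgeR adjusted p = 0.619). For Egr1 it was -0.66 ± 0.54, for Fos 0.26 ± 0.76 and for Jun 0.41 ± 0.25, with edgeR adjusted p of 0.843, 0.970 and 0.781. None of the 31366 intervals was called (0.0%) by edgeR, with 2205 at an unadjusted p under 0.05 and 8 called by DESeq2, so the larger Atf3 change without Uprt is not shown to differ from that with Uprt.

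The Uprt transgene moved none of the 4 levels past the threshold, where 0.115% of intervals were called. The log2 fold changes, Uprt over none, were 0.25 ± 0.31 for Atf3, -0.11 ± 0.13 for Jun, -0.16 ± 0.40 for Fos and -0.24 ± 0.28 for Egr1, with edgeR adjusted p from 0.818 to 0.928. In the order of group means, Atf3, Egr1 and Fos were highest in Lmna F/F without Uprt and then in Lmna F/F with Uprt, and both Lmna +/+ groups came below them. Neighbours of the same Lmna genotype in that order overlapped for each of the 3 genes. Between males and females, where 0.23% of intervals were called, the changes were 0.55 ± 0.31 for Atf3, -0.18 ± 0.13 for Jun, 0.10 ± 0.41 for Fos and -0.01 ± 0.28 for Egr1 (males over females, edgeR adjusted p from 0.612 to 0.998).

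The 4 genes varied more between mice of a group than most RNAs of similar level. The biological coefficient of variation that edgeR estimated was 0.558 for Fos, 0.429 for Atf3 and 0.395 for Egr1, against medians of 0.268, 0.275 and 0.186 for intervals of similar CPM. That put them at the 99.2, 96.1 and 98.6 percentile of those intervals. For Jun it was 0.194 against a median of 0.166, at the 77.1 percentile.

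The second question was how much of each RNA was read as newly made, measured as its T>C share, the percent of reads that carry a conversion. Mice without Uprt give the background of this measure. Atf3, Fos and Jun had higher T>C shares with Uprt, and Egr1 did not. Over both Lmna genotypes the odds of a T>C read, Uprt over none, had a log2 ratio of 3.31 ± 0.84 for Fos (SE, edgeR adjusted p = 0.00198), 2.14 ± 0.72 for Atf3 (edgeR adjusted p = 0.0145), 0.82 ± 0.23 for Jun (edgeR adjusted p = 0.00468) and -0.05 ± 0.49 for Egr1 (edgeR adjusted p = 0.935). The test called 55.8% of 13574 intervals, so 3 of 4 genes called is no departure from the intervals at large. The median log2 odds ratio over these tested intervals was 1.18. Fos lay at the 96.8 percentile of that distribution, Atf3 at 83.0, Jun at 35.6 and Egr1 at 8.11. Fos passed the filter on T>C reads only through Lmna F/F with Uprt, where it had 5 to 29 T>C reads per library. It had 0 to 8 in Lmna +/+ with Uprt, and without Uprt 0 to 1 in Lmna F/F and 0 to 4 in Lmna +/+. Its ratio and rank thus lean on the group where its label was high, and are given as a description. The Atf3 call was lost without Lmna +/+ no Uprt replicate 2 (1.76, edgeR adjusted p = 0.0595).

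In Lmna F/F hearts the T>C share of Fos ranged from 3.29% to 12.3% with Uprt (median 9.82%, 6 mice), and without Uprt it was 0.350% in replicate 2 and 0% in the other 3 mice. Replicate 2 held 1 T>C read of 286 (95% exact binomial interval 0.00885% to 1.93%), and the others held none of 182, 125 and 155 reads, which allows shares of up to 1.65%, 2.40% and 1.94% when a count of 0 is taken to allow 3 reads. The upper exact binomial limits of these libraries were 2.01%, 2.91% and 2.35%. The means were 8.69% ± 3.36 with Uprt and 0.0874% ± 0.175 without (SD, n = 6 and 4, two-sided exact permutation p = 0.00952, adjusted p = 0.0381 over 12 tests). Non-overlap of this kind, with Uprt higher, was seen at 31.9% of the intervals tested for shares with at least 20 reads in each library.

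In Lmna +/+ hearts Fos had few reads, and libraries under 20 reads on an interval were left out of shares. With Uprt the share was 0% to 15.2% in 6 mice (median 5.19%), with 0 T>C reads in 2 of them, and without Uprt it was 1.89% and 0% in 2 mice. The exact permutation p was 0.357 (adjusted p = 0.429), and with 6 against 2 libraries no value below 0.0357 is possible. Summed over its 4 kept intervals, the difference for Fos in Lmna F/F hearts was 7.37 percentage points and was not called (exact permutation, adjusted p = 0.133). The interval from 85522591 differs in its T>C reads: its 47 T>C reads hold only 7 conversions on its own T bases, or 0.149 per T>C read, against 1.05 at the main Fos interval.

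Atf3 in Lmna F/F hearts had T>C shares of 11.5% to 20% with Uprt (median 16.8%), against 3.65%, 5.39%, 3.72% and 4.58% in the 4 mice without Uprt. Every mouse with Uprt lay above every mouse without it, as at 31.9% of the intervals tested for shares with at least 20 reads in each library. The means were 16.0% ± 3.05 with Uprt and 4.34% ± 0.820 without (SD, n = 6 and 4, exact permutation p = 0.00476, the smallest this design allows, adjusted p = 0.0364). In Lmna +/+ hearts the share was 0% to 25.9% with Uprt (median 9.42%, 8 mice), on 20 to 109 reads per library, against 0% and 5.13% in 2 mice without Uprt (exact permutation p = 0.400, adjusted p = 0.436).

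For Jun the difference was called in Lmna +/+ hearts. In these its T>C share was 10.7% to 18.3% with Uprt (median 12.8%), against 5.05%, 6.25% and 8.67% without. The groups did not overlap, as at 26.9% of the intervals tested for shares with at least 20 reads in each library. The means were 13.8% ± 2.77 with Uprt and 6.66% ± 1.84 without (SD, n = 8 and 3, exact permutation p = 0.00606, the smallest possible, adjusted p = 0.0364). In Lmna F/F hearts it was 7.67% to 16.6% with Uprt (median 10.2%), against 4.75%, 7.45%, 10.1% and 9.52% without (exact permutation p = 0.157, adjusted p = 0.314).

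**Figure D3:**
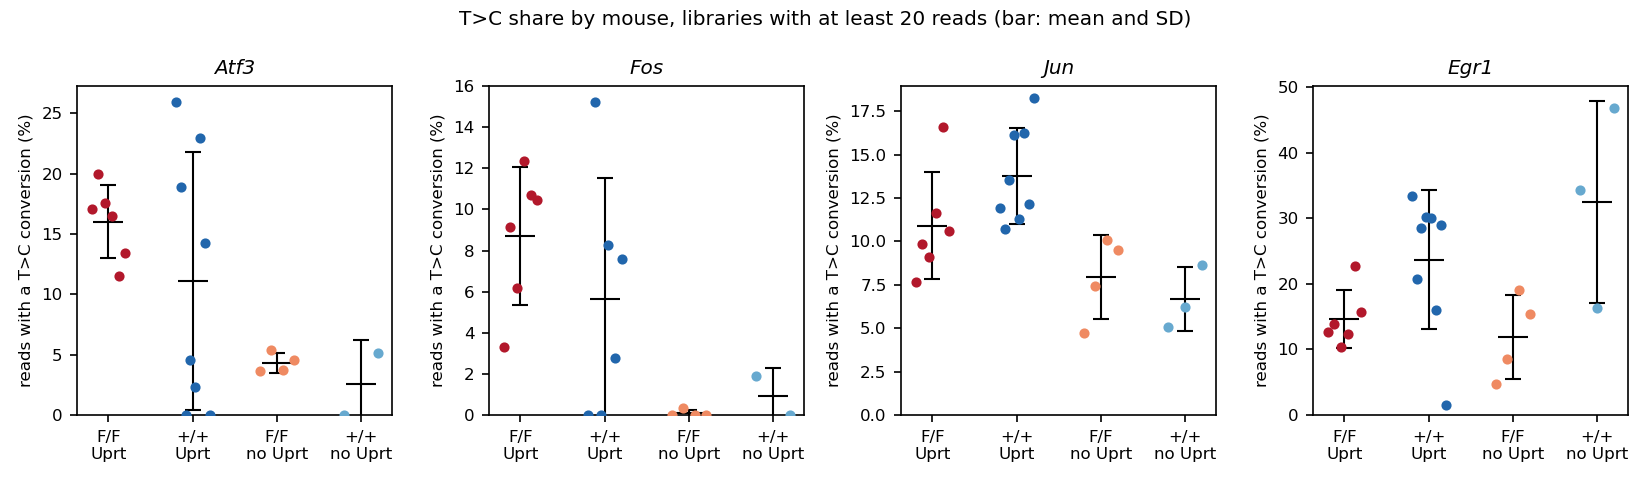
T>C share in percent (linear axis from 0) in each library with at least 20 reads on the gene, with the mean and SD of each group. Fos without Uprt lies at 0% to 1.89%, while Egr1 reaches 46.8% in a mouse without Uprt.

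Egr1 had a high T>C share in mice without Uprt. In Lmna F/F hearts it was 10.4% to 22.8% with Uprt (median 13.3%), against 4.79%, 8.49%, 19.0% and 15.3% without (exact permutation p = 0.452, adjusted p = 0.452). In Lmna +/+ hearts it was 1.53% to 33.3% with Uprt (median 28.7%), against 34.4%, 16.3% and 46.8% without (exact permutation p = 0.267, adjusted p = 0.393). Lmna +/+ Uprt replicate 8 stood apart from its group, with 4 T>C reads of 262 (1.53%, 95% exact binomial interval 0.417% to 3.86%), where the other 7 lay between 16.1% and 33.3%.

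The T>C reads of Egr1 were nearly level across groups, and its other reads were not. T>C reads averaged 1.93 ± 0.378 CPM in Lmna F/F with Uprt, 1.68 ± 0.881 in Lmna +/+ with Uprt, 1.92 ± 0.570 in Lmna F/F without Uprt and 1.97 ± 0.132 in Lmna +/+ without Uprt (SD, n = 6, 8, 4 and 3). Reads without a conversion averaged 12.1 ± 4.07, 6.13 ± 3.31, 18.8 ± 12.0 and 5.31 ± 3.92 CPM in the same groups. The mean share of Egr1 was lower in Lmna F/F than in +/+ hearts both with and without Uprt, and its mean level was higher. T>C reads of Atf3 averaged 0.609 ± 0.210, 0.214 ± 0.348, 0.259 ± 0.147 and 0.0143 ± 0.0247 CPM in the same groups.

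**Figure D4:**
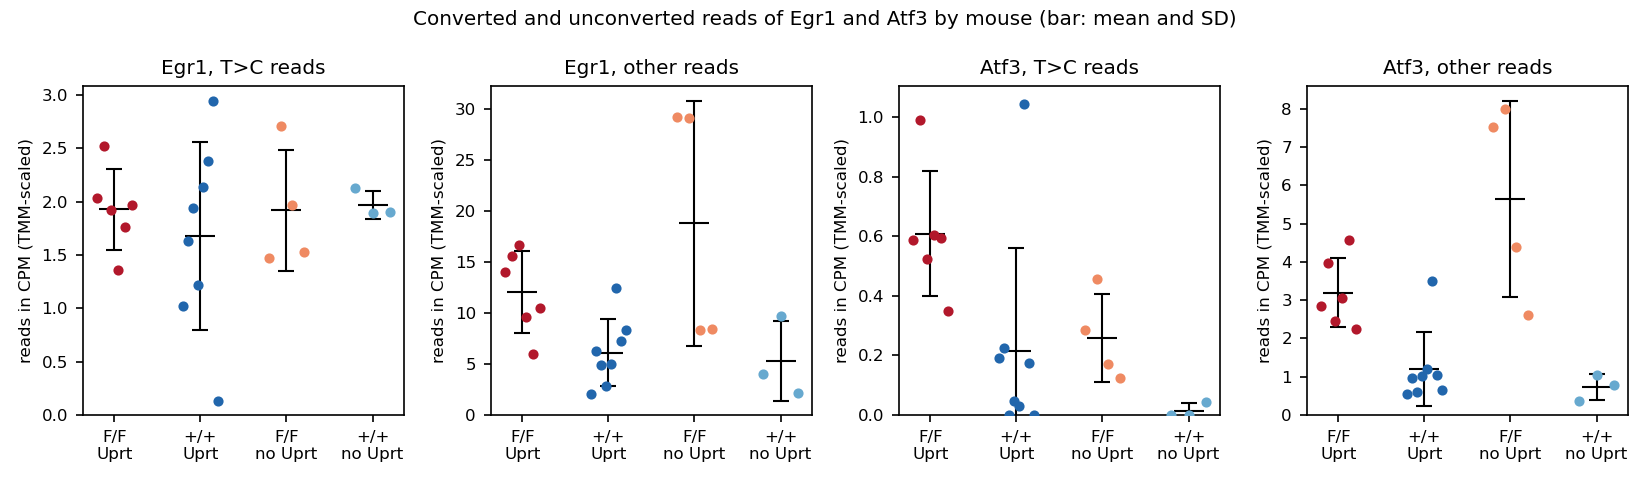
Reads with and without a T>C conversion in CPM (linear axes from 0) for Egr1 and Atf3 in each mouse, with the mean and SD of each group. T>C reads of Egr1 average 1.68 to 1.97 CPM in all 4 groups, while its other reads average 5.31 to 18.8.

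Conversions were also counted per T base read, which takes the base content of the intervals into account. With Uprt they were 0.666% for Egr1, 0.574% for Jun, 0.564% for Atf3 and 0.377% for Fos. The median was 0.353% over 13570 intervals that passed the filter of the share test, which removes intervals with few T>C reads. Without Uprt conversions were 0.518%, 0.353%, 0.142% and 0.0217% in the same order of genes, against a median of 0.124%. Fos without Uprt was at the 1.92 percentile of those intervals and Egr1 at the 87.9 percentile. Fos passed that filter only through Lmna F/F with Uprt. Exact permutation tests on this measure called the same contrasts as those on reads, Fos and Atf3 in Lmna F/F hearts and Jun in Lmna +/+ hearts.

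Myc allowed no statement on labelling. None of its 14 reads in Lmna F/F and none of its 10 reads in Lmna +/+ with Uprt carried a conversion, which allows shares of up to 21.4% and 30.0%. All 5 T>C reads came from 27 reads of Lmna F/F no Uprt replicate 1.

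The comparison of T>C shares between Lmna genotypes among mice with Uprt called none of the 4 genes, where 0.00737% of intervals were called. The log2 odds ratios, Lmna F/F over +/+, were 0.69 ± 0.67 for Atf3, 0.76 ± 0.70 for Fos, -0.41 ± 0.25 for Jun and -0.73 ± 0.55 for Egr1 (SE, edgeR adjusted p = 0.9997 for each). By library the difference was -2.87 percentage points for Jun (exact permutation p = 0.0942, adjusted p = 0.226) and -9.02 for Egr1 (exact permutation p = 0.0759, adjusted p = 0.226). Without Lmna F/F Uprt replicate 5 the Jun difference was -4.01 points (adjusted p = 0.0476, exact permutation), and without Lmna +/+ Uprt replicate 8 that of Egr1 was -12.2 points (adjusted p = 0.0286, exact permutation). Without Uprt the same contrast for Egr1 was -1.84 ± 0.81 on the log2 odds scale (edgeR adjusted p = 0.742), and for Fos, with 1 T>C read in the Lmna F/F libraries, it was -3.59 ± 1.70 (edgeR adjusted p = 0.747), opposite in sign to its value with Uprt.

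T>C reads alone, compared between Lmna genotypes in the 14 mice with Uprt, could be tested for 3 genes, where 0.49% of 10405 intervals were called. The log2 fold change was 1.91 ± 0.79 for Atf3 (SE, edgeR adjusted p = 0.629), 0.26 ± 0.39 for Egr1 (edgeR adjusted p = 0.955) and 0.02 ± 0.22 for Jun (edgeR adjusted p = 0.994). For Atf3 the 95% interval runs from 0.37 to 3.46. Atf3 passed the filter on T>C reads here only through Lmna F/F with Uprt, so its change is given as a description. No difference in the T>C reads of Atf3 was called at this depth. Lmna F/F libraries held 16 to 44 of them and Lmna +/+ libraries 0 to 25. This test left out the mice without Uprt, so it takes no account of background. There Atf3 averaged 0.259 CPM of converted reads for Lmna F/F and 0.0143 CPM for Lmna +/+. With Uprt the averages were 0.609 and 0.214 CPM. Egr1 averaged 1.92 and 1.97 CPM without Uprt, against 1.93 and 1.68 CPM with it. For Jun they were 2.23 and 1.87 CPM, against 3.34 and 3.28 CPM. What part of these changes is newly made RNA was not tested.

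The levels of Fos, Egr1 and Atf3 went together between mice. Over the 21 libraries, on the scale log2(CPM + 0.5), Fos and Egr1 had a Pearson r of 0.816 and a Spearman rho of 0.868 (permutation p = 1e-05 for both, the smallest the resamples can give, adjusted p = 0.0001 over 10 pairs). For Atf3 and Egr1 r was 0.783 and rho 0.731 (permutation p = 2e-05 and 0.0003, adjusted p = 0.0001 and 0.00107). For Fos and Atf3 r was 0.727 and rho 0.721 (permutation p = 0.00025 and 0.00032, adjusted p = 0.000833 and 0.00107). Without the 2 mice farthest from the median of the first gene named, r was 0.776, 0.737 and 0.649.

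The pairs were then compared apart from the group means. With each mouse set against the mean of its group, r was 0.701 for Fos and Egr1, 0.562 for Atf3 and Egr1 and 0.506 for Fos and Atf3 (permutation, adjusted p = 0.0047, 0.0312 and 0.0447). The deviations were shuffled over all 21 libraries and not within groups. No allowance was made for the group means removed, so these p-values may be too small. Within the 8 Lmna +/+ mice with Uprt r was 0.649, 0.639 and 0.661 for the same pairs, none past the threshold (exact permutation, adjusted p = 0.305 for each). Within the 6 Lmna F/F mice with Uprt r was 0.842 for Fos and Egr1 but -0.335 for Atf3 and Egr1 and -0.276 for Fos and Atf3 (exact permutation, adjusted p = 0.306, 0.773 and 0.773). All 21 libraries carry 1 pool label, and no further batch is given.

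None of the relations of Jun passed the threshold over all 21 libraries. Its r was 0.378 with Fos, 0.375 with Egr1 and 0.213 with Atf3 (permutation p = 0.0917, 0.0942 and 0.356, adjusted p = 0.118, 0.118 and 0.396), with rho of 0.358, 0.322 and 0.246. Without Lmna +/+ Uprt replicate 6, the mouse with the high Atf3 level, Jun and Egr1 passed (r = 0.489, permutation, adjusted p = 0.0473). Whether the relations of Jun differ from those of the other pairs was not tested. Pairs with Myc rest on 0 to 27 reads per library and are no finding. With sequencing depth the levels had r of -0.36 for Egr1, -0.24 for Atf3, -0.12 for Myc, -0.066 for Fos and -0.0041 for Jun over the 21 libraries. These relations with depth were not tested.

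**Figure D5:**
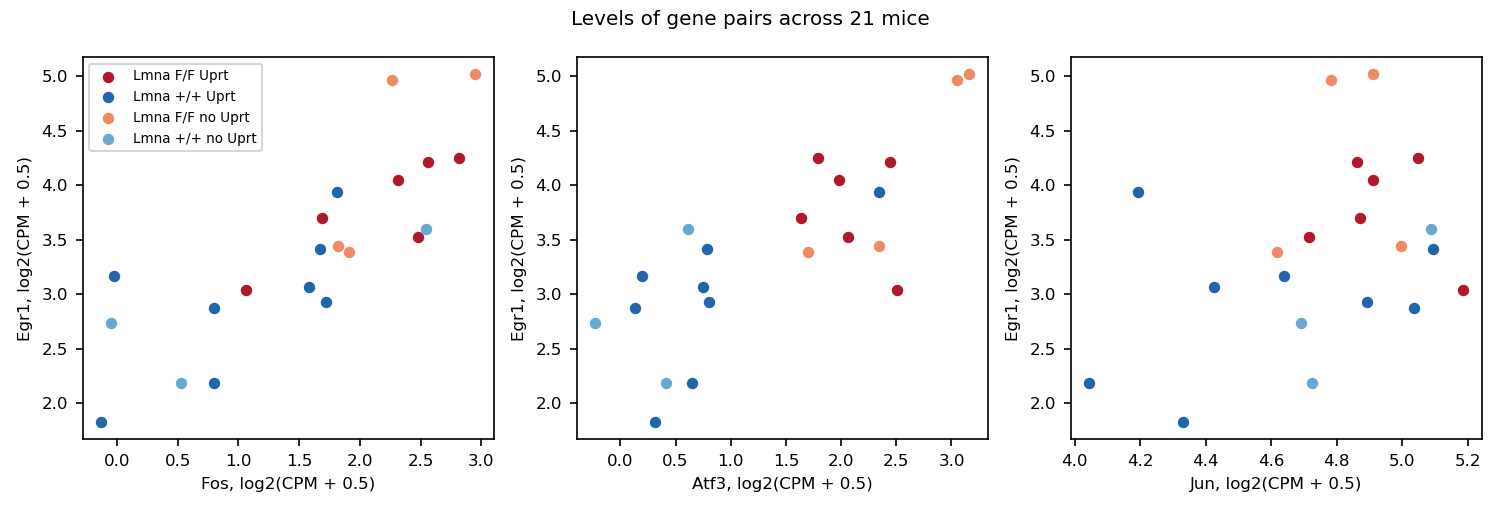
Level of Egr1 against that of Fos, Atf3 and Jun, each as log2(CPM + 0.5), 1 point per mouse, coloured by group. The 21 points line up for Fos (r = 0.816) and Atf3 (r = 0.783) and less closely for Jun (r = 0.375).

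Among 17159 other intervals with a mean of at least 1 CPM, the one most like each gene across the 21 libraries is given by position, since the files hold no name for it. For Fos it was an interval on chromosome 1 from 134002908 to 134005106 (minus strand, r = 0.911), and for Egr1 one on chromosome 2 from 56996842 to 56998424 (minus strand, r = 0.889). For Atf3 it was an interval on chromosome 18 from 36858120 to 36858352 (minus strand, r = 0.928), and for Jun one on chromosome 7 from 15680883 to 15684165 (minus strand, r = 0.824). These are the highest of many values and are given as a description. Ranked against the same intervals, Egr1 came 3rd in likeness to Fos, and Fos came 16th in likeness to Egr1. Atf3 held rank 23 in likeness to Fos and rank 45 to Egr1, while in likeness to Atf3 itself Egr1 held rank 202 and Fos rank 438.

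The interval nearest to Atf3 averaged 10.9 CPM in Lmna F/F with Uprt, 5.37 in Lmna +/+ with Uprt, 13.8 in Lmna F/F without Uprt and 4.97 in Lmna +/+ without Uprt. The interval nearest to Fos averaged 19.9, 11.1, 23.1 and 12.8 CPM in the same order of groups, and that nearest to Egr1 4.23, 2.01, 5.71 and 2.93 CPM.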

How the data were processed

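RNA of 21 hearts was sequenced as QuantSeq 3′ single-end reads of 100 bases after alkylation, per the labels' protocols. The deposited values used are counts per 3′ UTR interval and library, per the file headers: all reads, T>C reads, multimapped reads, T bases read and T bases converted. The header is laid out as SlamDunk writes it, and the submitters' processing notes name mm39. The deposited interval length and T content, of other units, were used to describe intervals. Not given in the sources used here are aligner settings, variant filters and how many conversions mark a T>C read. Conversions at sequence variants, if unfiltered, would add T>C reads without labelling.

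Of 208307 intervals, overlapping ones on a strand were reduced to the most read, leaving 64988. Samples were grouped by the genotype label, and 0 columns of other samples were present. Nothing says that the mice were matched across groups. The 5 genes, their windows and the lists were chosen with earlier results of these data known. The genes named are the 5 members, and per member apart from Myc the interval with the highest r. Cell type markers and other early-response genes could not be named and were not run.

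Reads were tested in edgeR 4.0.16 (R 4.3.3; filterByExpr with a minimum count of 10, TMM, glmQLFit, glmQLFTest) in 1 fit of 21 libraries on group and sex. The 14 mice with Uprt gave the test of T>C reads, on Lmna genotype and sex. T>C shares were tested on the converted and the unconverted reads, with a term per library and read type by group and sex. P-values were adjusted over all intervals (Benjamini-Hochberg, threshold 0.05). The SE of a log2 change is the change over the square root of the F statistic, and its 95% interval spans 1.96 SE on either side. Shares by library, with at least 20 reads, used two-sided exact permutation tests, and relations used 100000 resamples. Binomial intervals are exact (Clopper-Pearson), and a count of 0 allows 3 reads of the total; both cover counting error only, since reads carry no molecular identifiers. In simulated counts with 200 intervals shifted by a log2 change of 1, the test recovered 78.5% for the level with Uprt (30318 intervals), 31.0% without (30072 intervals), 21.5% for the difference of both Lmna effects (30041 intervals), 85% for Uprt (29992 intervals) and 28.5% for T>C reads (9900 intervals). Of the T>C shares, with the odds shifted, it recovered 13.5% for Uprt and 9% for Lmna with Uprt (13574 intervals each). For Uprt 55.8% of intervals were called in the data. With only 200 shifted the adjustment is stricter, so the 13.5% does not describe that test as it was used. The shifted intervals were drawn at random from those with enough reads. Recovery was not measured for Fos, Atf3 and Egr1 themselves, whose levels vary more between mice than most of similar level. Alternatives were DESeq2 1.42.0 or its size factors, no filter, no sex term, fewer samples, a quasi-binomial model with limma 3.58.1, summed intervals, other read minimums of 10 and 50, a pseudocount of 1, and each library left out. Library size alone, T bases in place of reads, and 2 libraries left out together were added after seeing the data.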

Additional observations from a re-analysis of the deposited data

Results flagged for a closer look

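Of 27 groups of 4 to 8 libraries examined for a value far from the rest, 2 held such a value, where chance gives about 1 in 20 groups. Atf3 in Lmna +/+ Uprt replicate 6 stood at 4.56 CPM, with the other 7 mice of that group between 0.593 and 1.24 CPM. The same library had the highest Egr1 and Fos levels of its group, 14.9 and 3.01 CPM, and the lowest depth of the 21, 25975905 reads. The part of depth in these levels was not tested. The T>C share of Fos in Lmna F/F no Uprt replicate 2 was 0.350%, from 1 read of 286, with the other 3 mice of that group at 0%. With those 3 tied at 0, any T>C read in replicate 2 would have been flagged, so the rate of 1 in 20 does not apply there.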

How the results depend on the processing

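Atf3 kept its call in both Lmna comparisons of level under DESeq2, DESeq2 size factors, library size alone, no filter, no sex term, summed intervals and each library left out in turn, and lost it with Uprt in males alone (1.11) and without Uprt in the 7 libraries alone (2.81, edgeR adjusted p = 0.0780). Without the low-count filter Fos and Egr1 were called with Uprt (1.32 and 0.86, edgeR adjusted p = 2.01e-06 and 2.17e-06), Egr1 also without Uprt (1.49) and the Atf3 difference between both Lmna effects too (-1.65, edgeR adjusted p = 0.0169). Egr1 without Uprt was also called with no sex term (1.51, edgeR adjusted p = 0.0475) or library size alone (1.68, edgeR adjusted p = 0.0424), and without Lmna F/F Uprt replicate 5 or Lmna F/F no Uprt replicate 3 or 4. The causes were not tested.

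With Uprt the count of 767 intervals was 1243 in DESeq2, 1592 without a filter, 1313 with library size alone, 1172 in the 2 groups alone and 210 in males, and 508 to 925 with 1 library left out. Without Uprt the count of 1621 was 32 in the 2 groups alone, 994 in males, 121 without replicates 1 and 2 of Lmna F/F no Uprt, and 460 to 2356 with 1 library left out. Library size alone moved the median of all intervals to 0.16 and 0.17 in these comparisons, with 1455 higher and 265 lower without Uprt, against 1083 and 538. The count for the difference of both Lmna effects was 8 in DESeq2, 329 without a filter and 0 to 4 with 1 library left out. The count for Uprt was 36, with 233 in DESeq2, 491 without a filter and 10 to 58 with 1 library left out. For T>C reads it was 51, with 96 in DESeq2, 171 without a filter and 37 to 59 with 1 library left out. The Lmna share test called 1 interval, with 3 in the quasi-binomial model, 2 with no sex term, 4 in the 14 mice with Uprt, 0 with T bases and 0 to 4 with 1 library left out. The Uprt share test called 3384 in Lmna +/+ alone and 6909 to 7662 with 1 library left out. Of the share tests by library, 0 to 4 passed with 1 library left out, and of the pairs of genes 4 to 6.

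Values that were never called changed sign in places. Jun without Uprt was 0.040 with library size alone and -0.18 to 0.026 with 1 library left out. The difference of both Lmna effects ranged from -1.39 to 0.74 for Fos with 1 library left out, and was 0.34 for Egr1 without replicates 1 and 2 of Lmna F/F no Uprt. Uprt against none ranged from -0.072 to 0.49 for Atf3, -0.40 to 0.66 for Fos and -0.41 to 0.010 for Egr1. Males against females ranged from -0.080 to 0.33 for Fos and -0.20 to 0.17 for Egr1, with 0.00054 for Egr1 in DESeq2. The Egr1 share with Uprt ranged from -0.35 to 0.19 and was 0.096 in the quasi-binomial model and 0.095 with T bases, and per T base in Lmna +/+ from -0.333 to 0.0161 percentage points. Jun T>C reads ranged from -0.27 to 0.11. The Lmna difference in the summed Fos share was -0.382 points, and the Jun and Atf3 deviations had r = -0.119. The shares by library lost their calls with some single libraries left out, at 7.88 to 9.69 points for Fos, 6.32 to 8.13 for Jun and 10.9 to 12.6 for Atf3. Without Lmna F/F no Uprt replicate 1 Atf3 and Myc were not called (r = 0.43), nor as deviations (r = 0.183). No paired analysis was possible because the replicate numbers only follow accession order. Few reads limit Fos and Atf3 shares in Lmna +/+ hearts and every value of Myc.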
